A study of Mus musculus with 3 samples.

Results

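Binding of the histone deacetylase HDAC3 and the transcription factor KLF4 was examined at 10 keratin genes of the cluster on mouse chromosome 15: Krt1, Krt2, Krt5, Krt6a, Krt77, Krt78, Krt79, Krt80, Krt8 and Krt18. Peaks were chosen by position alone: a peak was assigned to a keratin gene when the nearest end of any protein-coding gene (GRCm38) belonged to it, or when the peak was centred within 1 kb of one of its ends. This gave 17 of the 57936 HDAC3 peaks and 27 of the 47155 KLF4 peaks of the deposited lists. The genes themselves were chosen with earlier results of these data known. Their counts beside the shares of all genes are therefore descriptions and no independent support. The rule divides the space between neighbours in the middle: the outermost KLF4 peak given to Krt80 on the side of Krt7 was 20238 bp from it, and the next peak along was 20703 bp from Krt7.

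Keratins are the intermediate filament proteins of epithelial cells, and each filament is built from pairs of a type I and a type II chain. The genes examined encode type II chains, with the exception of Krt18, a type I gene that lies at the edge of the type II cluster beside its partner Krt8. In the epidermis, basal cells use Krt5 with Krt14, and cells that leave the basal layer switch to Krt1 with Krt10. KLF4 is a zinc finger factor required for the skin barrier, and HDAC3 is the catalytic subunit of the NCoR/SMRT corepressor complexes.

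All chromatin was from wild-type mice at E18.5 and the tissue was dorsal epidermis, with the strain not given in the sources used here. The 3 libraries were an HDAC3 precipitation (antibody Abcam ab7030) of 56787485 tags, a KLF4 precipitation (R&D AF3158) of 61432711 tags and an input without antibody. Each kind of library was made once, which gives no spread between replicates and no test between libraries, and the intervals given are exact intervals at 95% that cover counting error only. Tag signals are normalised by the authors to 10000000 tags a library and are given here as normalised tags. Peaks do not measure RNA, so the labelled tissue could not be checked against marker expression here.

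Both factors had peaks in the keratin cluster, and the signal was unequally divided among the members. Krt80, Krt78 and Krt1 together held most of it. Krt80 had 32.6% of the HDAC3 tags and 42.7% of the KLF4 tags found in the assigned peaks. Krt78 had 22.2% and 26.8%, and Krt1 had 16.7% and 13.1%. The share of Krt80 rests on 2 pairs of peaks far outside the gene: without them it was 15.7% for HDAC3 and 15.3% for KLF4, and Krt78 led with 27.8% and 39.6%. The Krt78 shares depend on the gene table too, which gives that gene a span reaching almost to Krt8. The highest Krt78 peak of KLF4, with 9.5% of the KLF4 tags in assigned peaks, was nearest to that far end. At the other extreme, Krt5 was assigned no peak of either factor and Krt2 was assigned KLF4 peaks alone. Krt18 was assigned 1 HDAC3 peak, with a score of 30, and no KLF4 peak.

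**Figure D1:**
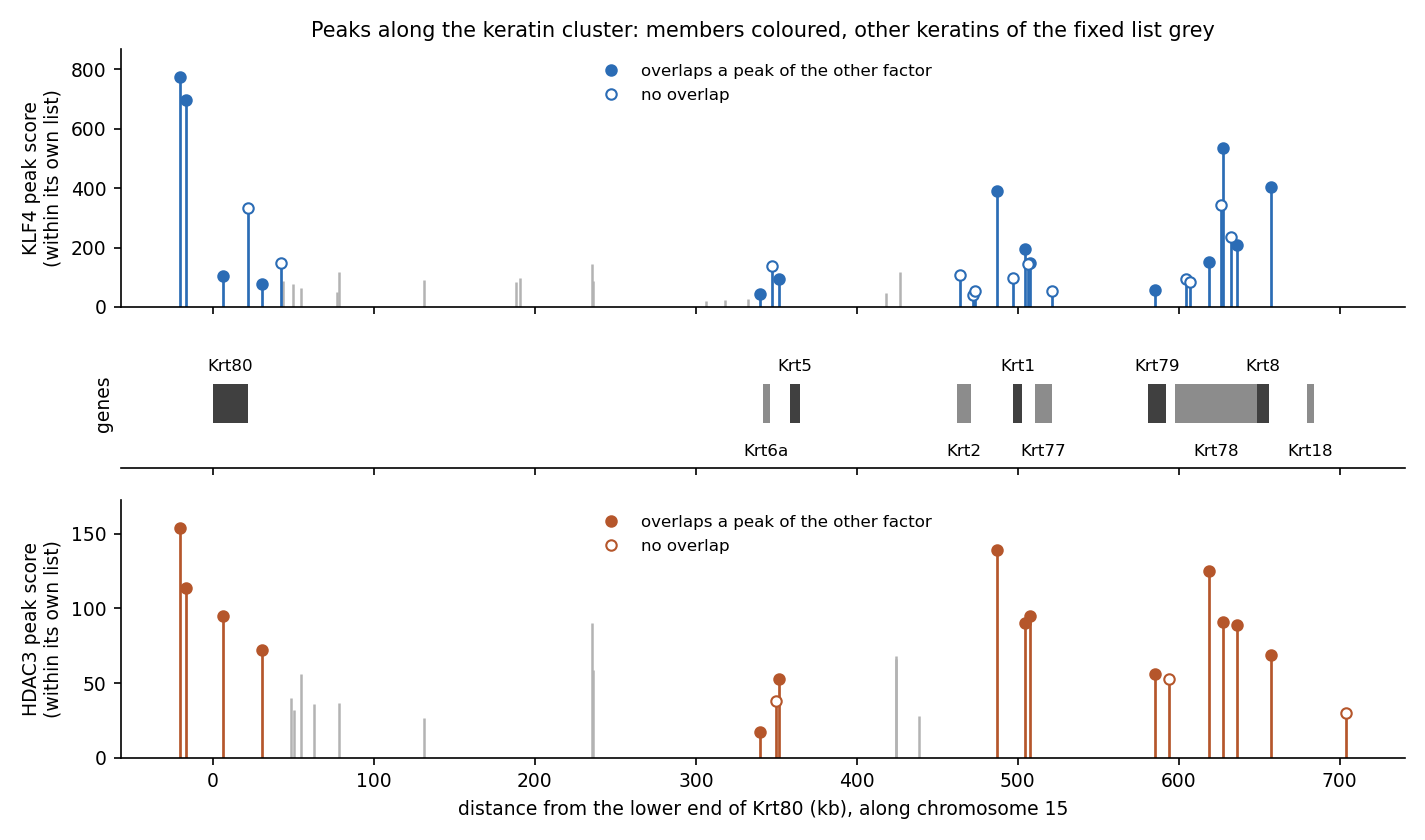
Peak scores of KLF4 (upper panel) and HDAC3 (lower panel) against distance in kb from the lower end of Krt80, with the 10 keratin genes as bars between them; filled circles are peaks that overlap a peak of the other factor, open circles are peaks that do not, and grey lines are peaks nearest to other keratins of the cluster. The highest KLF4 peaks, with scores of 775 and 696, lie outside Krt80, and the stretch around Krt5 has no circle of its own.

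The assigned peaks were nearer to gene ends than the lists as a whole, with a median distance of 6057 bp for HDAC3 (23173 bp over the list) and 5804 bp for KLF4 (15503 bp). Beyond 10 kb lay 41.2% of the assigned HDAC3 peaks and 33.3% of the KLF4 peaks, against 68.1% and 59.7% of the lists. The spacing of genes in the cluster limits how far a peak there can be from an end. Its part in these distances, and any preference of the peaks for gene ends, were not tested. Directly at the ends, within 1 kb, were 3 of the 27 KLF4 peaks (11.1%, list 10.8%) and 0 of the 17 HDAC3 peaks (list 6.97%). By gene, a KLF4 peak was centred in this window at 3 of the 10 genes (Krt80, Krt1 and Krt77), against 23.1% of all 21887 protein-coding genes, a share close to this background. No member had an HDAC3 peak in that window, where 18.9% of all genes had one, and none had both factors, where 10.3% did. The closest HDAC3 peak of any member was 1318 bp outside Krt8. Within 5 kb of a gene end the counts were 6 of 10 for HDAC3, 7 for KLF4 and 5 for both, beside 46.2%, 46.0% and 30.7% of all genes.

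With any distance allowed, 8 members were the nearest gene of an HDAC3 peak (64.8% of all genes) and 8 of a KLF4 peak (59.2%), and 7 had both (49.8%). In the highest decile of their lists were 12 of the 17 HDAC3 peaks and 10 of the 27 KLF4 peaks. An HDAC3 peak in the highest decile of its list, with a score above 53, was nearest to 6 of the 10 genes (Krt80, Krt1, Krt77, Krt79, Krt78 and Krt8), against 15.2% of all genes. A KLF4 peak in the highest decile, with a score above 173, was nearest to 4 (Krt80, Krt1, Krt78 and Krt8), against 13.3%. Of the 26 type I keratins of chromosome 11, 14 were nearest to such an HDAC3 peak and 11 to such a KLF4 peak. Among 15 other keratins of the chromosome 15 cluster, 3 were nearest to such an HDAC3 peak and 0 to such a KLF4 peak. The score is the value the authors' caller gave each peak, and it is used to rank peaks within a list only.

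Input was also higher at these peaks than over the lists. The median number of input tags was 6 at the assigned HDAC3 peaks (range 3 to 14), against 2 over the list, and 6 at the assigned KLF4 peaks (2 to 11), against 3. Among peaks in the highest decile the medians were closer, 7 against 6 for HDAC3 and 7.5 against 6 for KLF4. Measured as fold over input, 5 of the 17 HDAC3 peaks (29.4%, 10.3 to 56.0) were at least 8-fold enriched, beside 41.7% of the list, and 17 of the 27 KLF4 peaks (63.0%, 42.4 to 80.6), beside 54.4%. The part of the input in the high scores was not tested.

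HDAC3 peaks of the keratin genes often overlapped a KLF4 peak. Of the 17, 14 overlapped one by at least 1 bp (82.4%, 56.6 to 96.2), and 8 had a centre within 50 bp of a KLF4 centre (47.1%, 23.0 to 72.2). The 14 sites were 51.9% of the 27 KLF4 peaks (31.9 to 71.3). The sites belonged to 7 of the 10 genes, where 33.0% of all genes were nearest to an HDAC3 peak that overlapped KLF4. Over the whole lists, 25.8% of HDAC3 and 31.7% of KLF4 peaks overlapped. Overlap rises with score in both lists, and the list shares weighted to the score deciles of the assigned peaks were 76.6% for HDAC3 and 47.6% for KLF4, inside the intervals of the keratin genes. The 12 HDAC3 peaks above the score of 53 each overlapped a KLF4 peak, where 87.0% of such peaks in the list did.

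**Figure D2:**
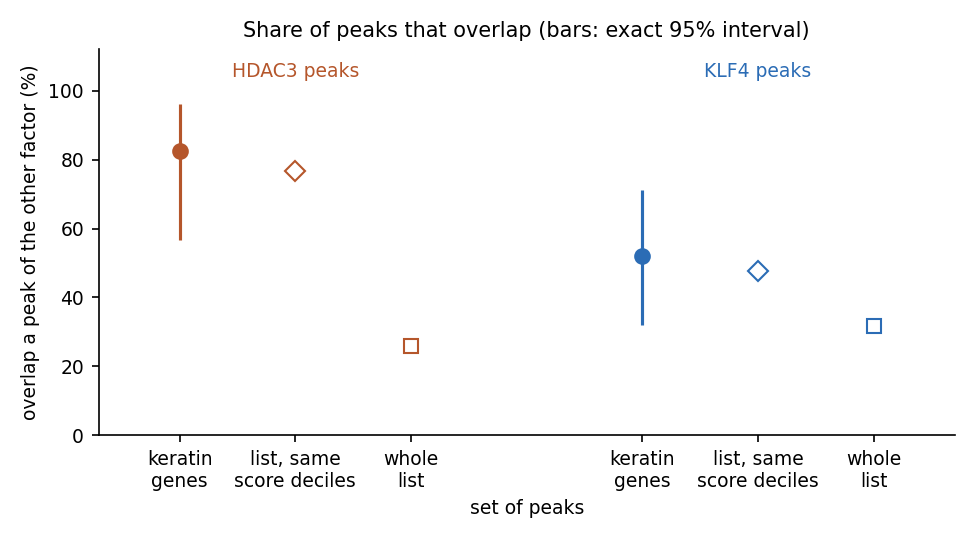
Percentage of peaks that overlap a peak of the other factor, for HDAC3 (left) and KLF4 (right): the peaks of the keratin genes (filled circle, exact 95% interval), the list weighted to the same score deciles (diamond) and the whole list (square). The keratin genes stand at 82.4% and 51.9%, close to the weighted values of 76.6% and 47.6% and above the whole-list values of 25.8% and 31.7%.

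The 3 HDAC3 peaks without a KLF4 partner had scores of 38 near Krt6a, 53 near Krt79 and 30 beyond Krt18, above the list median of 22 and below the median of 90.5 of those with a partner. Unpartnered KLF4 peaks were 13 in number, and some were high. Their scores ran from 40 to 342, with a median of 108, against 172.5 for the 14 with a partner. The highest of them lay upstream of Krt78 (342) and at the end of Krt80 (332).

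**Figure D3:**
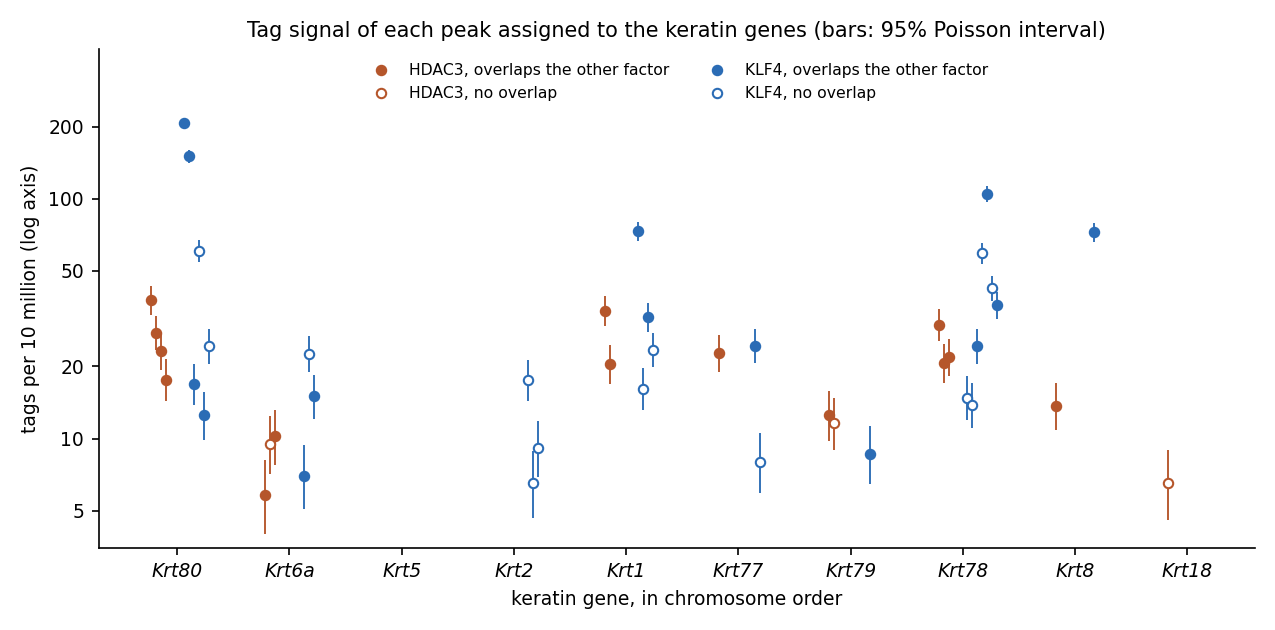
Tag signal of every assigned peak, in normalised tags on a log axis, for the 10 keratin genes in chromosome order; points are peaks (filled where they overlap the other factor), bars are 95% Poisson intervals, and HDAC3 stands to the left of KLF4 at each gene. KLF4 reaches 206.7 at Krt80 and 104.7 at Krt78, HDAC3 reaches 37.7 at Krt80, and Krt5 is empty.

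Krt5, the type II keratin of the basal layer, was without a peak. The nearest peaks to its ends, 6960 bp away for KLF4 and 7036 bp for HDAC3, were an overlapping pair that lay closer to Krt6a. A stretch of 66.6 kb with no KLF4 peak, and one of 72.4 kb with no HDAC3 peak, held Krt5 and Krt71. Krt71, its protein-coding neighbour, is a keratin of the hair follicle. Such stretches were not particular to Krt5. Longer ones without HDAC3 lay elsewhere in the cluster, among them 77.5 kb with Krt77, Krt76 and Krt4. For KLF4, 63.4 kb with Krt76 and Krt4 came close. Other keratins of the cluster were likewise assigned no peak of either factor: Krt4, Krt71, Krt73, Krt76, Krt81, Krt83, Krt87 and Krt90. Absence from the lists means only that no site there passed the calling limits, which needed at least 16 tags for HDAC3 and 19 for KLF4 besides the limits on enrichment.

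Krt1 and Krt2 encode the type II chains of the suprabasal and upper spinous layers. At Krt1 the leading site was a pair of peaks 10.3 kb outside the gene, toward Krt2. There HDAC3 gave 34.0 normalised tags (29.4 to 39.1; chr15:101835037-101835221, score 139, rank 170 of its list) and KLF4 gave 73.3 (66.6 to 80.3; chr15:101835046-101835230, score 391, rank 385). The centres were 9 bp apart, and both peaks stood well above input, at 15.7-fold and 29.1-fold. On the other side of Krt1, the 7.94 kb between it and Krt77 held 2 HDAC3 and 3 KLF4 peaks. Nearest to Krt1 were an overlapping pair about 2 kb outside the gene (20.4 normalised tags for HDAC3 and 32.1 for KLF4) and a KLF4 peak of 23.4 tags at 3850 bp. The KLF4 peak at its lower end, 334 bp outside the gene at chr15:101845000-101845184, was smaller, with 16.1 tags (13.1 to 19.6), and had no HDAC3 peak within 7676 bp.

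Krt2 differed from Krt1 in having no HDAC3 peak: the nearest was 16173 bp from its end. Its 3 KLF4 peaks were of moderate height. The largest, 17.6 normalised tags (14.4 to 21.2; chr15:101812000-101812184, score 108, 12.2-fold over input), was inside the gene, 1403 bp from its lower end. The others, with 6.51 and 9.12 tags, were 2249 and 3560 bp upstream of the annotated start. All 3 were outside the highest decile of the KLF4 list, at ranks from 11468 to 35017.

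Krt77, a keratin of embryonic epidermis and sweat gland ducts in the mouse, shared the interval next to Krt1. Its HDAC3 peak (22.7 normalised tags, 19.0 to 27.0; chr15:101855603-101855787, score 95) lay 3036 bp outside the lower end, beside a KLF4 peak of 24.4 tags (20.7 to 28.7) whose centre was 144 bp away, the widest spacing among the overlapping pairs. The other KLF4 peak was at its promoter, centred 150 bp upstream of the annotated start, and was low: 7.98 tags (5.90 to 10.5; chr15:101869763-101869947, score 52, 7.39-fold over input). It was the only assigned peak of either factor centred within 1 kb of a start among the 7 members with a start in the promoter table (Krt2, Krt5, Krt8, Krt18, Krt77, Krt78 and Krt79).

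Sequences of the 250 bases before the start are printed for 5 of these genes, because they show a promoter with a KLF4 peak beside promoters without one. They are from RefSeq (GRCm38.p6), read 5′ to 3′ in the direction of transcription. In the Krt77 window (chr15:101869706-101869955, minus strand) the capitals mark the bases of the KLF4 peak.
Krt77: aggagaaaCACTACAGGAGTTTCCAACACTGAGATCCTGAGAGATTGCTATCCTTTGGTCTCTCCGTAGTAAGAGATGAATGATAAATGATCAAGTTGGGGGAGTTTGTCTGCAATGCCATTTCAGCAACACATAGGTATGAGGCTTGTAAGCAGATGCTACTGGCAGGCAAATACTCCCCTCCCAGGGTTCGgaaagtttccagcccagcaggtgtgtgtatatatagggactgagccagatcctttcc
None of the 4 motifs searched on both strands was in it: GGGNGTGG (the KLF4 form), CACCC (a shorter form shared by KLF and Sp factors, which can overlap the first), TGANTCA (AP-1) or GCCNNNGGC (AP-2).

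The windows of Krt2 (chr15:101818170-101818419, minus strand) and of Krt18 (chr15:102027966-102028215, plus strand) held the KLF4 form without a peak. In these and the next windows the capitals mark matches to GGGNGTGG or CACCC on either strand.
Krt2: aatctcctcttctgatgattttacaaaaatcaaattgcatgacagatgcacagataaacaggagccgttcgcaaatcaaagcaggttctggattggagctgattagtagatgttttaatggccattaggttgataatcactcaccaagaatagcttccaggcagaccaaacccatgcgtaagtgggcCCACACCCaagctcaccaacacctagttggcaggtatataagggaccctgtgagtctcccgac
Krt18: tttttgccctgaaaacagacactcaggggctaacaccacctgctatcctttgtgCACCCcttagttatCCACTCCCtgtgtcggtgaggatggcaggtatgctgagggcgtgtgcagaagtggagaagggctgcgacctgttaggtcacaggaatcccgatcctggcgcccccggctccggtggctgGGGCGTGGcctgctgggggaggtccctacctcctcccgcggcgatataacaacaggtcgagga
The match in Krt2 begins 63 bases before the start, as does the one of the pair in Krt18 that is nearer to its start.

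Krt5 (chr15:101712906-101713155, minus strand) and Krt8 (chr15:102004343-102004592, minus strand) held the shorter form alone.
Krt5: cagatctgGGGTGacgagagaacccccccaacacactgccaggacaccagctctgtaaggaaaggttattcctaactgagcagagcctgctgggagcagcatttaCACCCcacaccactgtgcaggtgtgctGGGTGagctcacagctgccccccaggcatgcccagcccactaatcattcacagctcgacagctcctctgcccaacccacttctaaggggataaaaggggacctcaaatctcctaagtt
Krt8: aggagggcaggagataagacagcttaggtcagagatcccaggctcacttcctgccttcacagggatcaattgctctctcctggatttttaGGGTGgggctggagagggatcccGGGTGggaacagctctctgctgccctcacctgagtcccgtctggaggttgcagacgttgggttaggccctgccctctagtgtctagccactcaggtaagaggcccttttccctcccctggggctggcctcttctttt
Over the 7 members, GGGNGTGG was in 3 windows (Krt2, Krt79 and Krt18) and CACCC in 5. Of all 32851 windows of this length in the table, 15.9% held the first and 52.0% the second. The AP-1 form was in no member window (6.75% of all) and the AP-2 form was in that of Krt18 (13.7% of all). Across the list, 783 KLF4 peaks lay wholly inside a promoter entry, and 22.6% of them held GGGNGTGG, against 10.4% of windows of the same width.

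Krt6a is the type II keratin that keratinocytes switch on after wounding, and in resting skin it is a product of the hair follicle. Its peaks had fewer tags than the leading sites of Krt1. HDAC3 had 3, with 5.81, 9.51 and 10.2 normalised tags in order along the chromosome, and KLF4 had 3, with 7.0 at the first site and 22.6 at the highest. The first and last of each formed overlapping pairs, 37 and 76 bp between centres. The middle peaks were separate sites 2054 bp apart, and the KLF4 one was the largest of the gene (19.0 to 26.7 normalised tags; chr15:101695682-101695866, 1469 bp outside the gene). The lowest HDAC3 score of all members, 17, was here, but the others, 38 and 53, were above the list median of 22. Krt6a has a near copy, Krt6b, beside it, and how reads that match both genes were treated is not given in the sources used here.

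Krt80, a keratin linked to late differentiation and to the cell border near desmosomes, had the highest peaks of both factors. The pair farthest out, 20.8 kb outside the lower end, gave 206.7 KLF4 normalised tags (196 to 218; chr15:101327438-101327622, 96.1-fold over input) and 37.7 HDAC3 tags (32.8 to 43.1; chr15:101327432-101327616, 17.6-fold). Its KLF4 score of 775 ranked 4 of 47155 in the list, and its HDAC3 score of 154 ranked 97 of 57936. The next pair, 17.0 kb outside the same end, gave 150.1 KLF4 tags (141 to 160; rank 12, 38.0-fold over input) and 27.6 HDAC3 tags (23.5 to 32.3; rank 441). That HDAC3 peak was 5.52-fold over an input of 14 tags, the highest input among the assigned peaks. Together these pairs spanned 3.95 kb and held 32.4% of the KLF4 and 20.1% of the HDAC3 tags assigned to the 10 genes. Both depend on the rule, since a noncoding gene lies closer to them than Krt80 does, and with all annotated genes considered they are no longer assigned to a keratin.

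Closer to Krt80, the factors were distributed otherwise. A KLF4 peak of 60.7 normalised tags (54.7 to 67.2; chr15:101370132-101370316, score 332) was centred 62 bp outside the higher end, the nearest of all assigned peaks to a gene end, and no HDAC3 peak lay within 8563 bp of it. Overlapping pairs stood 6.06 kb inside the gene, with 23.1 HDAC3 and 16.9 KLF4 tags, and 8.6 kb outside the higher end, with 17.6 and 12.5. The balance of the factors at both differed from that at the outer pairs, as the ratios given further on show. A last KLF4 peak of 24.3 tags was 20.2 kb outside that end.

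Krt78 and Krt79 are less studied type II keratins, Krt79 being known from the hair canal and sebaceous duct. Krt78 had 7 KLF4 peaks, the most of any member, and 8.26% of all genes had at least as many; it had 3 HDAC3 peaks. The gene table gives it a span of 50624 bp that reaches almost to Krt8, whereas the promoter table starts it at position 101954287, and by that start most of its peaks were upstream. The peaks on the side of Krt8, the highest KLF4 peak among them, were given to Krt78 through the far end of that span. Some of these, with that KLF4 peak, lie closer to Krt8 than to the promoter-table start, so the counts of both genes depend on the gene table. Over 17.6 kb, from 12.7 to 30.1 kb upstream of this start, lay 5 KLF4 and 3 HDAC3 peaks.

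The highest of them was a pair 21.8 kb upstream, with 104.7 KLF4 normalised tags (96.7 to 113; chr15:101975987-101976171, score 535, rank 97) and 20.6 HDAC3 tags (17.0 to 24.7). A KLF4 peak of 59.1 tags (53.2 to 65.5; chr15:101974651-101974835), 1326 bp from it and without an HDAC3 peak, had the higher fold over input, 82.1 against 29.3. That fold rests on 2 input tags, against 10 at the pair, and is imprecise. The highest HDAC3 peak of the gene was at another site, 12.7 kb upstream, with 29.8 tags (25.4 to 34.6; chr15:101966897-101967081, score 125, rank 300) beside 24.3 KLF4 tags. Near the start itself were KLF4 peaks alone, of 13.8 tags at 1059 bp upstream and 14.8 tags at 1386 bp downstream. Krt79 had a pair inside the gene, with 12.5 HDAC3 tags (score 56, in the highest decile of its list) and 8.63 KLF4 tags (score 56, below its list median of 65), and an HDAC3 peak of 11.6 tags (8.99 to 14.8), 1878 bp upstream of its start, with the nearest KLF4 peak 8923 bp away.

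Krt8 and Krt18 form the keratin pair of simple epithelia and of the periderm, the transient outer layer of embryonic skin. They are neighbours and partners, and their peaks differed. The rule gave the sites between Krt78 and Krt8 to Krt78. Krt8 had 1 site, an overlapping pair upstream of its start, at 1371 bp for KLF4 (72.3 normalised tags, 65.7 to 79.3; chr15:102005621-102005805, score 405, rank 332, 28.7-fold over input) and 1318 bp for HDAC3 (13.7 tags, 10.9 to 17.1; chr15:102005568-102005752, score 69). Krt18 had no KLF4 peak within 22503 bp of either end, and its HDAC3 peak, 6.52 tags (4.59 to 8.98; chr15:102052364-102052548), was 20430 bp beyond its far end. The Krt8 pair is itself the KLF4 site nearest to Krt18.

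The overlapping pairs also differed in the balance of the factors. Dividing the KLF4 by the HDAC3 normalised tags gave ratios from 0.690 to 5.48 over the 14 pairs, with a median of 1.52, beside 1.53 over all 14967 overlapping pairs of the lists (quartiles 1.09 and 2.27). The ratio depends on the antibodies and is not a ratio of bound molecules, so only its differences between sites are of use. High ratios occurred at 4 sites: both outer pairs of Krt80 (5.48, 4.74 to 6.37, and 5.44, 4.58 to 6.47), the Krt8 pair (5.28, 4.13 to 6.78) and the central Krt78 pair (5.08, 4.17 to 6.24). Each exceeded at least 98.4% of all pairs, and their intervals did not overlap those of the other 10.

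Low ratios were found at the inner pairs of Krt80 (0.732, 0.562 to 0.957, and 0.710, 0.522 to 0.968) and at Krt79 (0.690, 0.474 to 0.999). The first Krt78 pair was at 0.815 (0.649 to 1.02). Below 1 lay 4 of the 14 pairs, and 19.4% of all pairs. By the assignment rule, high and low values thus occurred at a single gene, at Krt80 and at Krt78. The outer Krt80 pairs were assigned to it only because noncoding genes were left out. Further overlapping pairs also lost their keratin when noncoding genes were counted, and these are not identified here. The central Krt78 pair lay closer to Krt8 than to the Krt78 start of the promoter table, and the interval of the first Krt78 pair included 1. The Krt1 pairs, at 2.16 and 1.57, and the Krt77 pair, at 1.07, were in between.

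**Figure D4:**
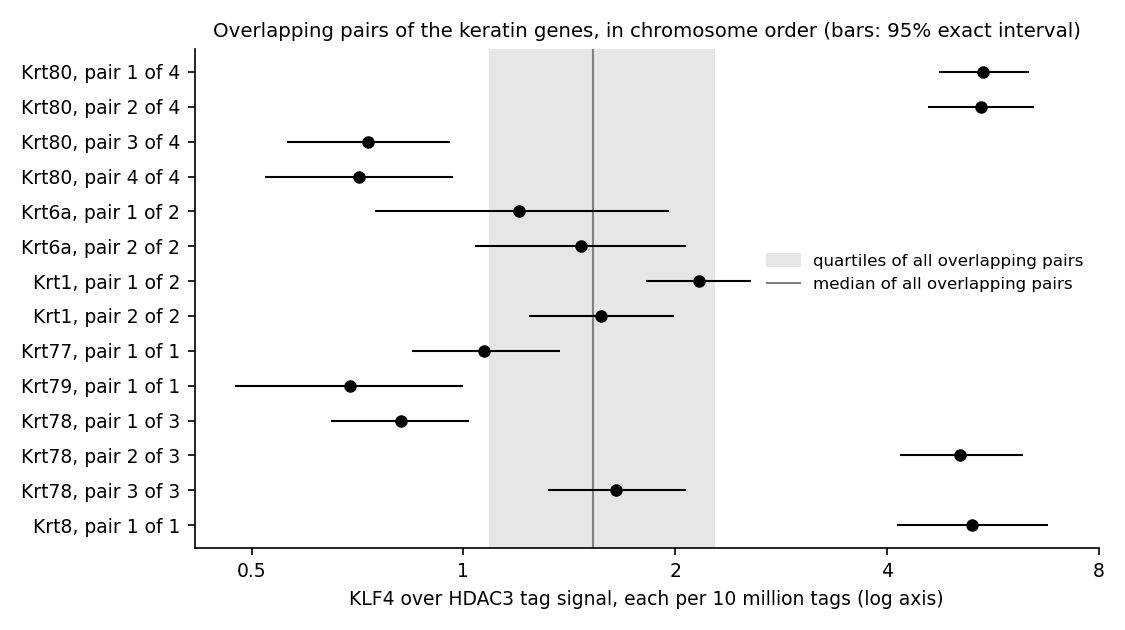
Ratio of KLF4 to HDAC3 tag signal, each in normalised tags and on a log axis, at the 14 overlapping pairs of the keratin genes in chromosome order; points are pairs, bars are exact 95% intervals, the grey band gives the quartiles and the line the median of all overlapping pairs. Both outer Krt80 pairs, the second Krt78 pair and the Krt8 pair lie above 5, apart from the others.

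The cluster from Krt80 to Krt18, 684 kb long, held 30 HDAC3 peaks (4.39 per 100 kb, 2.96 to 6.26) and 43 KLF4 peaks (6.29, 4.55 to 8.47), including those nearest to other genes. Over all chromosomes there were 2.13 and 1.73 per 100 kb. The type I cluster on chromosome 11 had 5.76 (4.36 to 7.46) and 5.66 (4.27 to 7.35), within the intervals of the type II cluster. Of the other keratins of chromosome 15, 15 of 17 listed genes were found as protein-coding genes, and 4 of them were nearest to an HDAC3 peak (64.8% of all genes) and 7 to a KLF4 peak (59.2%). At gene ends these 15 had HDAC3 in 2 cases, KLF4 in 2 and both in 1, beside 18.9%, 23.1% and 10.3% of all genes.

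The type I partners of the members were read in the same way. Krt16 and Krt17, the partners of Krt6a, each had an overlapping pair close to an end. At Krt16 HDAC3 gave 15.1 normalised tags and KLF4 gave 32.4, the latter 170 bp outside the gene. At Krt17 these were 20.3 tags, 241 bp outside, and 31.3. Krt14, the partner of Krt5, had 7 KLF4 peaks and 1 HDAC3 peak, where Krt5 had none at all. None of the Krt14 peaks was within 1 kb of an end, though a KLF4 peak was just outside this window, at 1008 bp. Krt10, the partner of Krt1 and Krt2, had 5 KLF4 and 3 HDAC3 peaks, of which 1 site was shared, and its KLF4 peak 682 bp outside an end was without HDAC3, as at the lower end of Krt1.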

How the data were processed

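Peak lists of an HDAC3 and a KLF4 precipitation from epidermis at E18.5 were analysed, 1 library each. The submitters' processing notes name bcl2fastq, STAR, HOMER and the build GRCm38.p5, and no tool version is given in the sources used here. Peaks of 185 bp were called in factor style against 1 input, at 4-fold or more over input and over the surrounding 10 kb and a false discovery rate of 0.001, per the file headers.

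The deposited tag signal is scaled by the authors to 10000000 tags. The deposited score is the caller's own value for a peak, lower than the tag number at the highest peaks. Enrichment over input, and over the local region, is a fold given by the authors. The deposited p-value of each peak and the focus ratio, a fraction, were read and not analysed.

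Peaks were placed on the gene table of GRCm38.p6 (21887 protein-coding genes on the chromosomes), whose primary chromosomes share coordinates with p5. Overlap meant centres at most 184 bp apart. Library tags were recovered from the scaled signal for exact Poisson intervals; shares have Clopper-Pearson intervals at 95%. PCR copies are not independent molecules. The table gives no strand, so either gene end was used; 7 members have a start in the promoter table. Motifs were counted in promoter windows, because of the assigned peaks only that of Krt77 lay wholly inside a sequence used here. Placement was tested on simulated data. Every member is named; other genes are the partners and fixed cluster keratins. Members and lists were chosen with earlier results of these data known. Alternatives were stricter peak sets, other overlap limits, gene-end windows and gene tables, and other rankings. Python 3.11.15, pandas 2.3.3 and scipy 1.17.1 were used.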

Additional observations from a re-analysis of the deposited data

How the results depend on the processing

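Of 39 alternative values for the counts, shares and densities, 26 stayed close to the reported ones and 13 moved. With peaks at least 8-fold over input, 5 HDAC3 and 17 KLF4 peaks were assigned, the KLF4 share that overlapped was 23.5%, 1 gene had a KLF4 gene-end peak (Krt80), and the densities were 1.61 and 4.10 per 100 kb; fewer peaks enter this set by construction. When all annotated genes competed, 10 HDAC3 and 20 KLF4 peaks were assigned, and 8 of each overlapped the other factor. The peaks lost were more than the outer Krt80 pairs, so other assignments to keratin genes also depend on the rule. With centres at most 50 bp apart, the overlap was 47.1% of HDAC3 and 29.6% of KLF4 peaks. A window of 5 kb gave 6 genes with HDAC3, 7 with KLF4 and 5 with both, and the annotated start alone gave 1 of 7 with KLF4. The absence of HDAC3 within 1 kb of an end, and so of both factors together, could not change with stricter peak sets or a narrower window. Those alternatives do not test it. HDAC3 was also absent within 1 kb of the annotated starts, but most of these are gene ends already counted, so this adds little. Within 5 kb of an end HDAC3 was present at 6 genes. The highest peak of a gene was another site in 3 of 32 rankings by fold: Krt78 KLF4 (score 342) over input, and Krt6a HDAC3 (17) and Krt77 KLF4 (52) over the local region. The tag shares without the outer Krt80 pairs were computed as an alternative chosen after seeing the data. No paired analysis was possible because each factor had 1 library. An evenly spread input would give 2.57 tags in the width of a peak, so the fold of a single peak is imprecise.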

Other observations

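Other keratins of the cluster carried lower peaks than the leading members. Krt86, a hair keratin, had both factors inside the gene near an end, HDAC3 with 6.87 normalised tags at 794 bp and KLF4 with 15.1 tags at 750 bp. Krt72, a keratin of the inner root sheath, had an HDAC3 peak of 5.64 tags 525 bp outside the gene, with the nearest KLF4 peak 12217 bp away. Its higher HDAC3 peaks, of 15.5 and 16.4 tags at 3755 and 3435 bp, also had no KLF4 partner, and their scores of 66 and 68 were in the highest decile of the HDAC3 list. Krt6b, the near copy of Krt6a, had 3 KLF4 peaks and no HDAC3 peak; the one at its end, 146 bp outside, was of 4.40 tags over an input recorded as 0.5.

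Krt75, a keratin of the hair follicle companion layer, was picked out after its values were seen. It had 2 overlapping pairs 9.8 and 10.8 kb outside the gene, with HDAC3 at 21.5 and 14.1 normalised tags and KLF4 at 23.8 and 14.0. These sites stood out little over input, at 5.43- and 5.59-fold for HDAC3 and 8.26- and 5.56-fold for KLF4.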
